A study of Homo sapiens with 8 samples.

Results

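Late-opening regions are accessible sites that had a peak on days 3 and 7 after SMARCB1 was switched on, and none on day 0 or day 1. They were chosen from the 4 peak lists of an ATAC-seq time course, after peaks that share at least 1 bp had been merged, and number 6647 of 146099 merged regions, or 4.55%. G401, an established cell line derived from a kidney rhabdoid tumour, here carries a doxycycline-inducible SMARCB1. The groups are day 0 without induction (labelled SMARCB1 -/-) and days 1, 3 and 7 of 1 µg/ml doxycycline (labelled SMARCB1 +/+), with 2 replicates on each day. All 4 groups are the same line in Tet-free serum. The labels do not say whether it is 1 clone, nor whether the replicates were separate cultures.

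SMARCB1 is a core subunit of the SWI/SNF complex, which uses ATP to slide and evict nucleosomes. Its loss defines rhabdoid tumours, and the complex is known to act largely at enhancers, many of which are far from promoters. Pioneer factors such as AP-1, a dimer of FOS and JUN proteins, can recruit it to closed chromatin.

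With a single deposited peak list for each day, differences between days come without replicate error and without p-values. The list whose name gives no day was taken as day 0, by elimination. SMARCB1 itself is not read out by these lists, so the labels were not checked against it. The most frequent local background of a list, called the genome-wide background here, was 6.34, 6.04, 6.73 and 6.10 reads on days 0, 1, 3 and 7. It is the background of 18.6% to 21.1% of the peaks of a list, and it was lowest on day 1 and highest on day 3, whose calls both enter the rule. The part of this gap in the calls was not tested. A lower summit in a bulk sample can mean fewer cells with the site open or less cutting in each, and these cannot be told apart. Because the same lists chose the regions, their heights on days 3 and 7 and their absence on days 0 and 1 are a description, not a test. Regions are not replicates of a condition, so differences between sets of regions are given as values and were not tested.

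Late-opening regions were small and modest in height. Their scaled summits, which are summit reads over the genome-wide background of the list, had a median of 4.75 on day 7 and 4.76 on day 3. The middle part of the regions, between the quartiles, ran from 4.10 to 5.90 on day 7 and from 4.01 to 6.10 on day 3. In reads, the medians were 29 on day 7 and 32 on day 3, and the lowest summit held 18 reads on either day. The authors' fold, which sets a summit against its surroundings in that list, had a median of 3.38 on day 7 and 3.36 on day 3. Median peak widths were 319 bp on day 7 and 342 bp on day 3, and together the merged regions covered 3.01 Mb.

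These values lay between those of sites seen once and sites open on all induced days. The 14215 regions with a peak on day 3 alone had a median scaled summit of 4.16, and the 7694 seen on day 7 alone had 4.26. Sustained gains are the 19074 regions with no day 0 peak and a peak on days 1, 3 and 7, and they had medians of 6.62, 8.03 and 6.39 on those days. The 60786 regions with a peak on every day stood higher again, with medians of 12.7, 11.6 and 11.3 on days 1, 3 and 7. The 8180 regions on days 1 and 3 only had a day 3 median of 5.20, above that of late-opening regions.

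**Figure D1:**
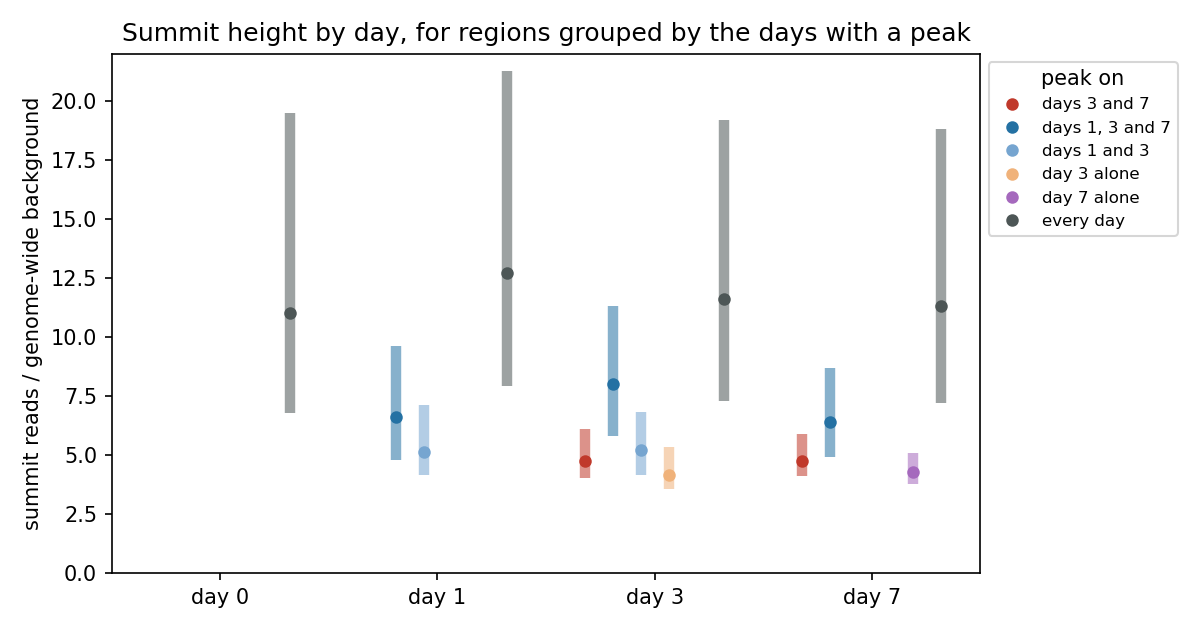
Scaled summit height (reads at the summit over the list's genome-wide background) by day, for regions grouped by the days on which they had a peak. Points are medians and bars run from the lower to the upper quartile over regions; late-opening regions (days 3 and 7) had medians of 4.75 on day 7 and 4.76 on day 3, lower than both sets with a peak on 3 or more days.

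The rule turns on whether a day 0 or day 1 peak touches the region. Among the late-opening regions closest to failing it, chromosome 7, 80741056 to 80741327, lay 2 bp from an early peak, with folds of 3.38 on day 7 and 3.62 on day 3. Chromosome 8, 140937036 to 140937345, lay 6 bp from one, with folds of 2.96 on day 7 and 2.85 on day 3. Just outside, chromosome 5, 126135460 to 126136334, overlapped a day 1 peak of fold 2.86 by 1 bp and had folds of 2.89 on day 7 and 2.40 on day 3. Chromosome 8, 21901702 to 21902304, overlapped a day 1 peak by 6 bp, with folds of 2.36 on day 7 and 2.16 on day 3. Such close calls were few: 126 late-opening regions had an early peak under 100 bp away, and 20 regions failed by an overlap of under 50 bp.

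The lists give no value where no peak was called, so the day 1 signal at late-opening regions is not known. The lowest called day 1 summit held 16 reads, or 2.65 times the background. A total of 817 late-opening regions (12.3%) stood on both late days above 6.62, the median day 1 summit of sustained gains. Against the median day 1 summit of regions seen on day 1 alone, 4.47, 2986 (44.9%) were higher on both days. The remainder were at or below that height on at least 1 of the late days.

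The late-opening pattern was most common at middle strength. Of regions with a day 3 peak and no day 0 peak, it made up 17.0% (16.4 to 17.6) at a day 3 fold of 3 to 4 and 16.6% (15.7 to 17.5) at 4 to 5. At folds under 3 it made up 12.9% (12.4 to 13.4), where 47.5% of regions were on day 3 alone. At folds of at least 6 it made up 3.07% (2.57 to 3.64), or 130 of 4230 regions, while 4020 were sustained gains with a day 1 peak. Among sites absent on day 0, those strongest on day 3 had thus nearly all been called on day 1.

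**Figure D2:**
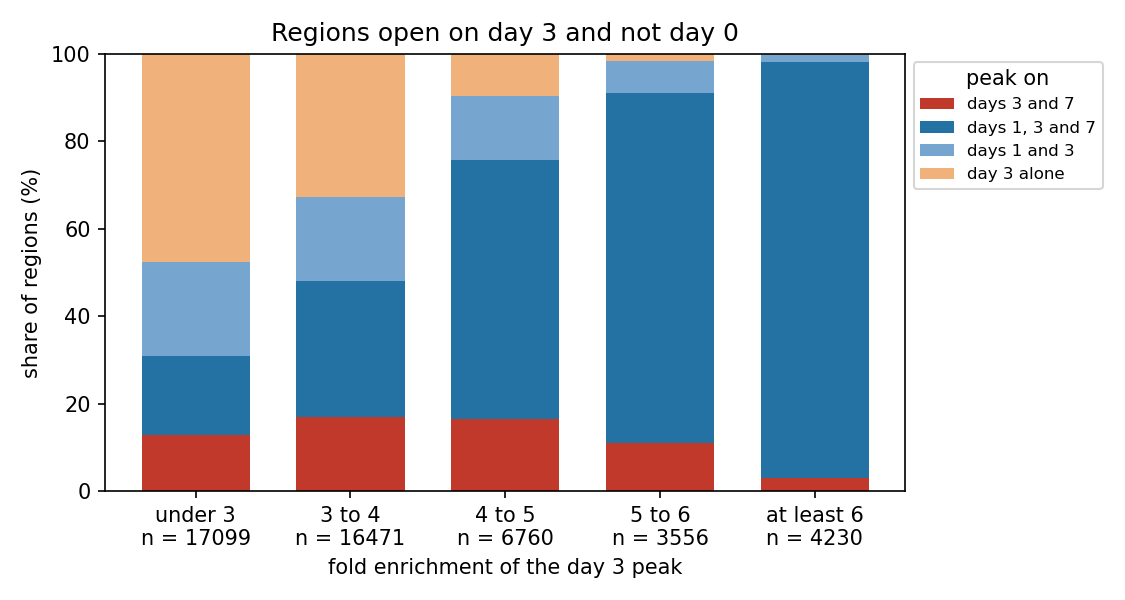
Share of regions (%) by the days with a peak, among regions with a day 3 peak and no day 0 peak, in bins of the day 3 fold enrichment. Late-opening regions (days 3 and 7) made up 12.9% at folds under 3, 17.0% at 3 to 4 and 3.07% at folds of at least 6.

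Most sites with their first called peak on day 3 were no longer called on day 7. Late-opening regions are the 31.9% (31.2 to 32.5) of 20862 such sites that had a day 7 peak. Over all regions with a day 3 peak, 76.2% had a day 7 peak, and of the 27254 sites first seen on day 1 and still open on day 3, 70.0% (69.4 to 70.5) did. Strength went with being kept. Among sites first seen on day 3, 21.3% were kept at a day 3 fold under 3, 34.3% at 3 to 4, 63.1% at 4 to 5 and 86.8% at 5 to 6. At folds of at least 6, 97.0% (92.5 to 99.2) of 134 were kept. At the same folds, sites first seen on day 1 were kept in 45.8%, 61.6%, 80.1%, 91.7% and 98.1%. Weak sites lie close to the limit for calling a peak, and its part in these shares was not tested.

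Late-opening regions had nearly the same median height on day 7 as on day 3. The rule requires a peak on both late days, so sites that fell below the calling limit by day 7 are left out. The lowest scaled summit called in a list was 2.95 on day 7 and 2.53 on day 3. Sustained gains and regions present on every day carry the same requirement, and its part in the ratios was not tested. The median log2 ratio of day 7 to day 3 scaled summits was 0.02 (0.01 to 0.03, SD over regions 0.32), and 47.6% were lower on day 7, against 52.8% of all regions with a peak on both days. Sustained gains had a median of -0.27 (SD 0.37), with 77.3% lower on day 7. Regions present on every day had a median of 0.02 (SD 0.25). By the authors' fold in place of the scaled summit, the medians were 0.01 in late-opening regions, -0.16 in sustained gains and 0.00 in regions present on every day, a smaller contrast. Summits at least 1.5-fold lower on day 7 numbered 201 (3.02%) among late-opening regions, against a background of 6.08% over all regions with a peak on both days and 20.1% of sustained gains. Those at least 1.5-fold higher numbered 259 (3.90%), against a background of 1.21% and 0.881% of sustained gains. Of regions present on every day, 2.14% were at least 1.5-fold lower and 0.984% at least 1.5-fold higher. Their summits held more reads, with medians of 69 on day 7 and 78 on day 3. Ratios of low counts scatter more, and the part of this in these shares was not tested. The contrast with sustained gains was seen on each chromosome, though all chromosomes share the same lists and scaling and are not replicates. The median step of late-opening regions ran between -0.04 on chromosome X and 0.04 on chromosome 10, above that of sustained gains on 23 of 23 chromosomes with Y left out.

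Late-opening regions were lower than sustained gains, so the step was also set out at like height. Where the geometric mean of both summits was under 4 times the background, the median log2 ratio was 0.08 in late-opening regions, sustained gains and regions present on every day alike. In that bin, 2.49% of late-opening regions and 2.11% of regions present on every day were at least 1.5-fold higher on day 7. These shares were 4.82% and 3.53% at 4 to 5, and 1.57% and 0.434% at 8 or more. Between 5 and 6 it was -0.02 in late-opening regions, against -0.23 in sustained gains and -0.02 in regions present on every day. At 8 or more it was -0.05 in the 510 late-opening regions, against -0.38 in 7621 sustained gains and 0.02 in 42172 regions present on every day. By the authors' fold, that last bin gave -0.01 in late-opening regions, -0.18 in sustained gains and 0.00 in regions present on every day. The picture depended on what was matched. At a day 3 fold of 6 or more the median was -0.28 in 130 late-opening regions, -0.47 in sustained gains and 0.02 in regions present on every day. At a day 7 fold of 6 or more it was 0.32 in 136 late-opening regions, -0.30 in sustained gains and 0.06 in regions present on every day. Late-opening regions were above sustained gains in both of these fold bins. Such bins pick regions by their fold on a day that is also in the ratio, which pulls the ratio towards that day. They therefore cannot show which set late-opening regions resemble. Both the rule and the binning use these lists, so the ratios are descriptions.

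**Figure D3:**
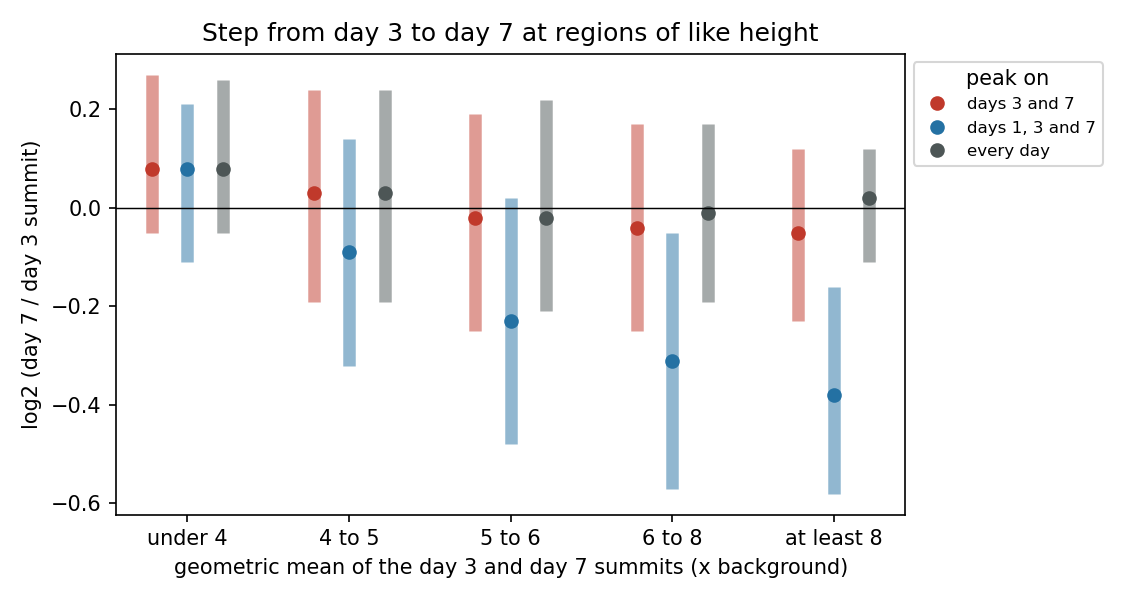
Log2 ratio of the day 7 to the day 3 scaled summit, for regions in bins of the geometric mean of both summits. Points are medians and bars run from the lower to the upper quartile over regions; at means of 8 or more, late-opening regions (days 3 and 7) had a median of -0.05, against -0.38 in sustained gains (days 1, 3 and 7).

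For single sites, few ratios had an interval that left out 1. The 95% interval of the day 7 to day 3 ratio lay below 1 in 100 of the 6647 late-opening regions and above 1 in 107 (1.61%). The backgrounds over all regions with a peak on both days were 7.23% below and 0.895% above. At the median of 29 reads on day 7, a difference between the late days was not detectable at this depth for most single sites. Across the 6647 regions the log2 scaled summits of days 7 and 3 had a Pearson correlation of 0.74 and a Spearman correlation of 0.66, as a description over regions that share their lists and their background.

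The day 7 and day 3 peaks of a region lay close together. Summits were a median of 63.0 bp apart, and within 100 bp in 68.7% of late-opening regions, against 73.3% of sustained gains and 80.0% of regions present on every day. Peaks were narrower on day 7 in 55.9% of late-opening regions, with a median log2 width ratio of -0.08, against -0.26 in sustained gains. In 92 regions a list had more than 1 peak.

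The late-opening regions with the highest enrichment on both days were led by a site on chromosome 5. They are ranked by the lower of their 2 folds, as a description of the list. At chromosome 5, 32852403 to 32853034, the summit held 68 reads on day 7 and 83 on day 3, with folds of 8.46 and 9.25. Its day 7 summit was 0.903 of that on day 3 (0.646 to 1.26), and the nearest day 1 and day 0 regions were 89.6 and 142 kb away. At chromosome 8, 24526257 to 24526812, the summit held 60 reads on day 7 and 62 on day 3, with folds of 8.24 and 8.15. The nearest day 0 or day 1 region was 157 kb away, farther than for the first site. Chromosome 6, 45667367 to 45668125, held 61 reads on day 7 and 58 on day 3, with folds of 8.49 and 7.64. Chromosome 9, 83024856 to 83025612, held 56 reads on day 7 and 58 on day 3, and its summits were 1 bp apart. None of these 4 sites differed between the late days beyond counting error.

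The other 6 of the 10 reached folds of at least 7.18 on both days. Chromosome 5, 174629424 to 174629963, held 52 reads on day 7 and 58 on day 3. Chromosome 15, 48298032 to 48298822, held 56 reads on day 7 and 71 on day 3, the widest gap of these 6, at a ratio of 0.870 (0.601 to 1.25). Chromosome 2, 84474397 to 84475229, held 58 reads on day 7 and 61 on day 3. The nearest day 0 region was 241 kb from the first of these, 17.5 kb from the second and 54.7 kb from the third. Chromosome 20, 21433995 to 21434750, chromosome 15, 35206261 to 35207026, and chromosome 3, 130329669 to 130330420, each held 50 reads on day 7, and 57, 56 and 57 reads on day 3. Only the second of these had an early region within 10 kb, a day 0 region at 5.47 kb.

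Altogether 46 late-opening regions (0.692%) had a fold of at least 6 on both days, and 904 (13.6%) of at least 4. The 46 held 42 to 68 reads on day 7 (median 50.5) and 46 to 83 on day 3 (median 54.5). They lay on 18 chromosomes, with at most 9 on any 1 of them. Their median distance to a day 0 or day 1 region was 19.6 kb, with 0 of them within 1 kb of one and 10 within 10 kb. Over all late-opening regions that median was 5.81 kb, with 14.7% within 1 kb and 65.7% within 10 kb. The 46 were picked by fold, which divides by a local background that was higher near early regions. The part of this in their distance was not tested.

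The tallest late summits mostly had low folds. Ranked by scaled summit, the first on both days was chromosome 11, 842745 to 843057, with 135 reads on day 7 and 146 on day 3, or 22.1 and 21.7 times the background. Its local background was 84.0 reads on day 7 and 90.4 on day 3, so its folds were only 1.60 and 1.61, and an early region lay 0.836 kb away. Next on day 3 came chromosome 6, 74222565 to 74222895, with 107 reads on day 7 and 121 on day 3, and chromosome 7, 1705896 to 1706199, with 104 and 121. Their folds were between 1.51 and 1.69 on either day. Chromosome 1, 204596345 to 204596917, held 61 reads on day 7 and 118 on day 3, a ratio of 0.570 (0.411 to 0.783), and chromosome 3, 140802733 to 140803541, held 109 and 117. On day 7 the next were chromosome 22, 39258014 to 39258315, with scaled summits of 18.4 on day 7 and 16.5 on day 3, and chromosome 11, 9590444 to 9590731, with 18.0 and 16.1. Chromosome 1, 26347538 to 26347876, held 110 and 106 reads, and chromosome 10, 28975926 to 28976513, 110 and 108. Of these 9 tall sites, 6 lay within 1 kb of a day 0 region.

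Sites with the most unequal late days were taken from the 2309 late-opening regions with a fold of at least 4 on either day. Higher on day 7 were chromosome 16, 86958944 to 86959645, with 66 reads on day 7 and 26 on day 3 (ratio 2.80, 1.75 to 4.59), and chromosome 3, 16109371 to 16110121, with 53 and 22 (2.66, 1.59 to 4.59). Chromosome 2, 75327321 to 75327806, held 47 reads on day 7 and 20 on day 3 (2.59, 1.51 to 4.62). Their folds were 6.04, 6.01 and 6.14 on day 7, against 3.33, 2.98 and 2.72 on day 3. Lower on day 7 were chromosome 6, 52321617 to 52322347, with 23 reads on day 7 and 67 on day 3 (0.378, 0.225 to 0.616), and chromosome 11, 44181309 to 44181920, with 23 and 54 (0.470, 0.275 to 0.778). Chromosome 16, 84252602 to 84252958, held 20 reads on day 7 and 47 on day 3 (0.469, 0.263 to 0.807). As extremes among many sites, they were picked for these ratios, and the intervals do not allow for that choice.

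Before fold was matched, late-opening regions lay farther from chromatin open on day 0 than other gains did. The median distance to a day 0 region was 11.4 kb for late-opening regions, 8.94 kb for sustained gains, 8.26 kb for regions on day 3 alone and 6.81 kb for regions on days 1 and 3 only. Within 10 kb of a day 0 region lay 46.2% (45.0 to 47.4) of late-opening regions, 53.5% (52.8 to 54.2) of sustained gains and 62.0% (60.9 to 63.0) of regions on days 1 and 3 only. The share was lower for late-opening regions than for sustained gains on 20 of 23 chromosomes. Against regions on days 1 and 3 only, it was lower on 23 of 23. Chromosomes come from the same lists and are not replicates. None of these sets has a day 0 peak of its own, so the rule does not fix this order directly.

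Fold and distance went together, so nearness was also set out at like fold. At a day 3 fold of 3 to 4, 41.0% of late-opening regions lay within 10 kb of a day 0 region, against 62.5% of sustained gains. At 4 to 5 the shares were 27.8% of late-opening regions and 52.7% of sustained gains, and at 6 or more 16.9% and 28.6%. Sites on day 3 alone had nearly the same shares as late-opening regions, 40.9% at 3 to 4 and 30.8% at 4 to 5. Regions on days 1 and 3 only lay between, with 52.4% at 3 to 4 and 39.0% at 4 to 5. At 6 or more their share was 17.1% of 76 regions, close to that of late-opening regions. At folds under 3, the shares were 68.5% of late-opening regions, 80.8% of sustained gains, 79.2% of regions on days 1 and 3 only and 68.2% of day 3 alone. At 5 to 6 they were 21.3%, 43.9%, 35.9% and 21.7%. The greater distance at like fold was thus against sustained gains and, at folds under 6, regions on days 1 and 3 only. Both of those sets have a day 1 peak. It was not seen steadily against sites on day 3 alone.

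**Figure D4:**
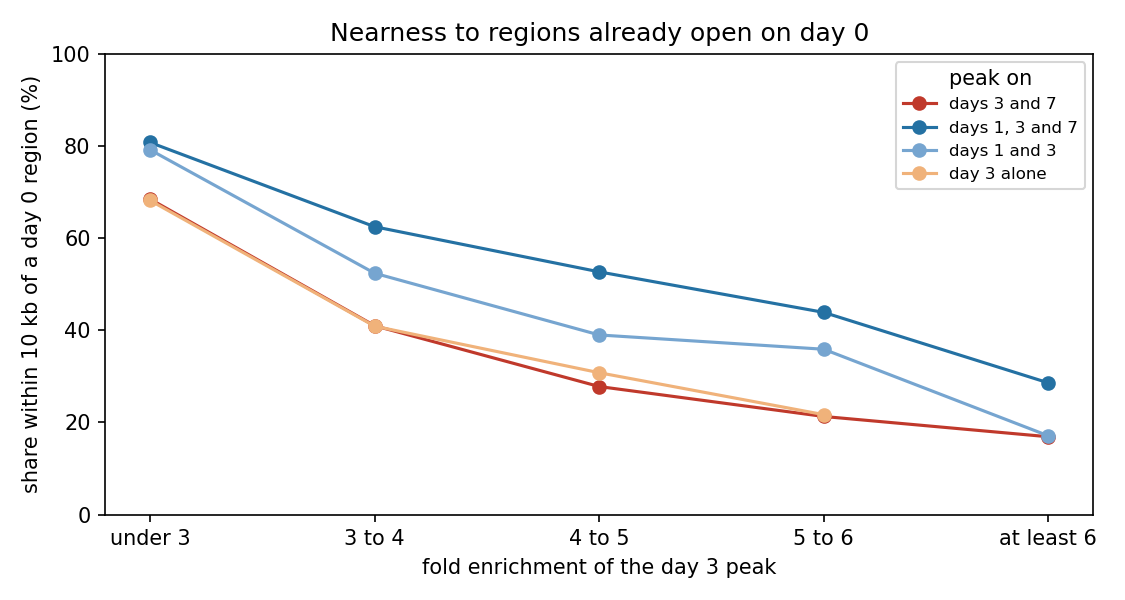
Share of regions (%) within 10 kb of a region with a day 0 peak, by the fold enrichment of the day 3 peak, for regions grouped by the days with a peak. At a fold of 3 to 4 the share was 41.0% for late-opening regions (days 3 and 7), close to 40.9% for regions on day 3 alone, and 62.5% for sustained gains (days 1, 3 and 7).

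With day 1 regions counted too, 977 late-opening regions (14.7%) lay within 1 kb of an early region and 432 (6.50%) beyond 50 kb. Those within 1 kb had median folds of 2.88 on day 7 and 2.84 on day 3, with a local background of 1.70 and 1.79 times that of the genome. Those beyond 50 kb had median folds of 3.94 on day 7 and 3.88 on day 3, with local backgrounds equal to that of the genome. Scaled summits ran the other way, at 5.57 on day 7 and 5.65 on day 3 within 1 kb, and 4.59 and 4.31 beyond 50 kb. Late-opening regions near early ones were thus taller in reads and lower in fold than the isolated ones. The median log2 step to day 7 was 0.01 within 1 kb and 0.09 beyond 50 kb.

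Isolated sites were kept more often before fold was matched. Of sites first seen on day 3, 26.8% (25.4 to 28.3) were kept to day 7 within 1 kb of an early region and 44.0% (40.9 to 47.2) beyond 50 kb, while the median day 3 fold was 2.69 and 3.49. At like fold the shares showed no steady rise with distance. Within 1 kb, at 5 to 10 kb and beyond 50 kb they were 22.7%, 17.6% and 24.5% at folds under 3. The same distances gave 34.8%, 32.3% and 35.6% at 3 to 4, and 57.7%, 61.8% and 65.2% at 4 to 5. At 1 to 5 kb the share at 4 to 5 was 65.4%.

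Few late-opening regions formed groups. Joined at up to 10 kb, 751 of them (11.3%) shared a group with at least 1 other, against 13.3% of regions on days 1 and 3 only and 13.8% of regions on day 7 alone, which are larger sets. There were 339 pairs, 19 groups of 3 and 4 groups of 4. Of the groups of 4, the 3 with the highest day 3 folds lay at chromosome 18, 556651 to 570934, chromosome 15, 62589069 to 62600074, and chromosome 13, 24435337 to 24446071, spanning 10.7 to 14.3 kb. The group on chromosome 18 held 0 regions with a day 0 peak, and the other two held 1 each, present on every day. Folds in the 3 groups ran from 2.52 to 4.65 on day 7 and from 2.59 to 3.76 on day 3; none reached a fold of 5.

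**Figure D5:**
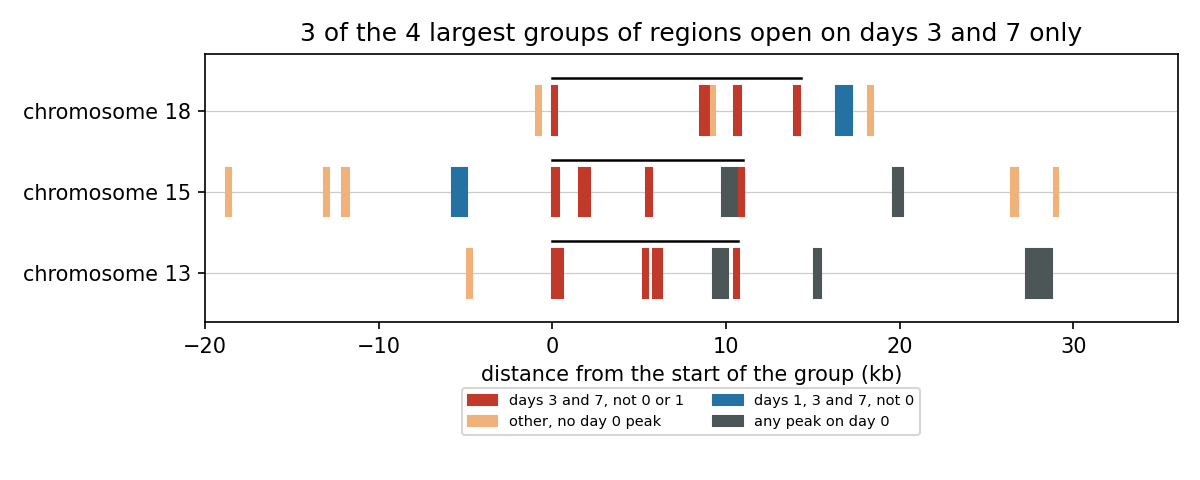
Merged regions around 3 groups of 4 late-opening regions (red), drawn to scale by distance in kb from the start of each group, with flanks of 20 kb. The black line marks the group, which spans 14.3 kb on chromosome 18 and 10.7 kb on chromosome 13; regions on days 1, 3 and 7 are blue and any region with a day 0 peak is dark grey.

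Chromosomes differed in their share of late-opening regions. Leaving out Y, late-opening regions were 4.55% of the 145866 merged regions on 23 chromosomes. The share was lowest on chromosome 19, at 1.76% (1.43 to 2.14), followed by chromosome 17 at 2.93% (2.55 to 3.35) and chromosome 22 at 3.05% (2.50 to 3.68). It was highest on chromosome 13, at 5.84% (5.10 to 6.65), followed by chromosome 4 at 5.52% (4.99 to 6.09) and chromosome 8 at 5.50% (4.95 to 6.10). Sites already open on day 0 enter these denominators. As a share of regions with no day 0 peak, the range was 6.16% (5.02 to 7.46) on chromosome 19 to 11.3% (10.2 to 12.5) on chromosome 8. That share was 9.85% in all. As a share of late-opening regions and sustained gains together, the range was 21.4% (17.7 to 25.4) on chromosome 19 to 28.6% (25.4 to 32.0) on chromosome 16, around 25.8% in all. Neighbouring regions are not independent, and these intervals carry no spread between replicates.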

How the data were processed

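The data are 1 narrowPeak list per day of ATAC-seq, an assay that inserts adapters into open DNA with a transposase. The submitters' processing notes name Bowtie2, deepTools, MACS2 (2.1.1.20160309) and hg19. Read filters, transposase offset and pooling of replicates: not given in the sources used here. In the deposited lists the score is the integer part of -log10 q multiplied by 10, for nearly all peaks. The deposited fold is a ratio of a summit to its local background in the same list. The deposited p-value and q-value columns, both as -log10, and the summit offset in bp are also from the authors' peak caller.

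Reads at each summit were recovered from fold and -log10 p, with a Poisson tail for p and 1 read added above and below in the fold. A whole number of reads fitted all 411408 peaks within 0.005 in -log10 p. Scaled summits are these reads divided by the most frequent local background of the list, which 18.6% to 21.1% of its peaks have. The recovery, the assignment of days and the distances were tested on simulated data. Peaks sharing at least 1 bp were merged, and a region's value on a day is that of its highest summit. Shares have exact Clopper-Pearson 95% intervals, and summit ratios have exact conditional binomial 95% intervals. Medians have binomial 95% intervals over regions. The intervals cover counting error, or draws of regions, and no spread between cultures. Reads copied by PCR are not independent, which these intervals ignore.

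Regions and alternatives were chosen with earlier results of these data known. Named regions follow a rule of 10 by the lower of 2 folds, 5 by summit on each day, 3 by ratio in each direction, the 3 largest groups, and 2 regions on either side of the overlap rule. Python 3.11.15, NumPy 2.4.6, pandas 2.3.3, SciPy 1.17.1, matplotlib 3.10.9 and bedtools 2.31.1 were used. Coordinates are 1-based hg19. Tests across the 8 samples had been planned and were not made, since the file holds no value per sample. Genes, promoters and motifs were not analysed here, because the gene table at hand is of GRCh38.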

Additional observations from a re-analysis of the deposited data

How the results depend on the processing

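The count of 6647 late-opening regions kept within 1.5 times that value under every planned rule on overlap, merging and distance (5671 to 7954). An overlap of at least 50% of both peaks gave 7954 and no merging gave 6910, but these count day 3 peaks, not merged regions. The 5671 are the late-opening regions at least 1000 bp from any early peak, a subset by construction. It also kept within 1.5 times at a -log10 q of at least 5 in all 4 lists (5724, of which 4270 lay on a late-opening region). With that limit in the day 3 and day 7 lists only, 4271 were left, since fewer peaks enter. Of the 5724, 1454 lay on no late-opening region of the full lists.

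The median log2 step to day 7 was 0.06 with scaling by the median summit of regions present on every day, with 42.6% lower on day 7. It was 0.07, with 42.0% lower, for regions at the genome-wide background on both days, a choice made after seeing the data. The cause was not tested. By the authors' fold it was 0.01. Within 5 and 20 kb, 27.5% and 66.0% lay near a day 0 region, 44.9% and 81.5% near a day 0 or day 1 region, and 6.48% and 19.8% in groups. With a fold of at least 4 on either day, 25.2% lay within 10 kb of a day 0 region and 44.6% of a day 0 or day 1 region. With that fold limit on all regions, chromosome 13 had 4.98% and chromosome 19 had 1.09%, and the highest and lowest shares were 5.42% on chromosome 4 and 1.04% on chromosome 22.

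No paired analysis was possible because the lists carry no value per replicate, and leaving out a replicate was not possible for the same reason. The alternatives for promoters and motifs were not run. Depth limits the absence of an early peak: the lowest called summit was 18 reads on day 0 and 16 on day 1.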

Other observations

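The nearest merged region to a late-opening region was another late-opening region in 9.15% of cases, while late-opening regions were 4.55% of all merged regions. It was one in 7.11% of cases for regions on day 7 alone, 6.21% for sustained gains, 4.19% for regions on days 1 and 3 only, and 3.54% for regions present on every day. Other sets also had their own kind nearest more often than their share of all merged regions. The values were 19.6% against 13.1% for sustained gains and 8.60% against 5.27% for regions on day 7 alone. A sustained gain was nearest to 18.2% of late-opening regions, and a region present on every day to 30.4%, against 48.3% for regions present on every day themselves.

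In fixed windows of 1 Mb, picked after their values were seen, chromosome 11, 27000001 to 28000000, held the most late-opening regions, with 18 of 103 merged regions there, beside 33 sustained gains and 22 regions with a day 0 peak. Chromosome 3, 72000001 to 73000000, followed with 14 of 86. Chromosome 15, 36000001 to 37000000, held 11 late-opening regions among 49, of which only 4 had a day 0 peak. The median window with any region held 2 late-opening regions.

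The late-opening region farthest from any day 0 or day 1 region lay at chromosome 11, 50017102 to 50017424, with 31 reads on day 7 and 27 on day 3. No early region lay within 1687 kb. The next lay at chromosome 18, 70429870 to 70430110, with 23 reads on day 7 and 30 on day 3, and chromosome 16, 17561832 to 17562122, with 30 on both days. All 3 were picked for their distance, with the values known.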
